A study of Mus musculus with 36 samples.

Results

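Voltage-gated sodium channels, voltage-gated calcium channels, the HCN pacemaker channels and the sodium leak channel NALCN were followed in the cerebellum and hippocampus of mice that had lost 1 or 2 intact alleles of Pogz, which encodes a zinc-finger protein of chromatin. The genes were taken by symbol from the deposited gene tables: sodium channel alpha and beta subunits (Scn followed by a number and a or b), calcium channel subunits (Cacna, Cacnb, Cacng), the Hcn genes, and Nalcn. This gave 45 of the 24421 genes listed, namely 10 sodium alpha and 4 sodium beta subunits, 10 calcium alpha1, 4 alpha2delta, 4 beta and 8 gamma subunits, the 4 Hcn genes, and Nalcn. A level above 1 CPM (reads of the gene scaled to the size of its library) in at least 6 libraries of a tissue was required for a test. It was reached by 39 genes in at least 1 tissue, by 37 in the cerebellum, by 38 in the hippocampus and by 36 in both.

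The alpha subunits of sodium and calcium channels form the pore and its voltage sensor. Sodium channels carry the upstroke of the action potential, and calcium channels couple depolarization to transmitter release, dendritic spikes and gene activity. Beta, alpha2delta and gamma subunits are accessory proteins that set how many channels reach the membrane and how fast they gate, and several gamma subunits serve instead as auxiliary proteins of AMPA-type glutamate receptors (TARPs). HCN channels open on hyperpolarization and set resting potential and rhythmic firing, as in Purkinje cells and the distal dendrites of pyramidal neurons.

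RNA was sequenced from adult C57Bl/6 mice, 3 males and 3 females per genotype, and each of the 18 mice gave a cerebellum and a hippocampus, 36 libraries in all. Control mice carried floxed Pogz on both chromosomes and no Cre. The cKO+/- mice carried the Nestin-Cre transgene with 1 floxed and 1 wild-type allele (NesCre/+; Pogzfl/+), and the cKO-/- mice carried it with 2 floxed alleles (NesCre/+; Pogzfl/fl). Nestin-Cre acts in neural progenitors, so the neurons and glia derived from them lose exons 13 to 19 of each floxed allele. Because no control carried Cre, an effect of the transgene and an effect of the deletion cannot be told apart. In whole tissue, fewer cells of a type and less RNA per cell cannot be told apart either.

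Counted reads came to between 21421850 and 32544929 per cerebellar library and between 17609321 and 45544188 per hippocampal library. Pogz itself, of which the undeleted exons were still counted, changed by -0.30 (log2) for each allele lost in the cerebellum and by -0.28 in the hippocampus, and its level in every cKO-/- library fitted was below that of every control. Tissue identity was as labelled, with Gabra6 of granule cells at 498 to 1075 CPM in the cerebellum and Neurod6 of pyramidal neurons at 141 to 247 CPM in the hippocampus. The control hippocampus of animal Sample_1129 held cerebellar transcripts (Gabra6 at 49.4 CPM, next highest hippocampal library 1.09 CPM). The hippocampal cKO-/- library of animal Sample_1160 stood apart: 24 of the 38 channel genes tested there were below, and 5 above, the range of the other 17 hippocampal libraries. It was left out of the hippocampal fits given first, because an earlier analysis found the study's results to rest on the other 17 libraries. The study reports excluding an outlier RNA sample on the basis of diagnostic plots and does not name it. Values with all 18 libraries stand beside these fits. In the cerebellum, summed markers of brainstem and midbrain were 7.01 to 16.2 CPM in the controls and reached 66.7, 91.2, 120.0 and 128 CPM in 4 mutant libraries (animals Sample_933, Sample_936, Sample_1433 and Sample_1385). All controls had animal numbers between Sample_1120 and Sample_1219, as did 3 of the cKO+/- and 2 of the cKO-/- mice. The ends of this range are mutant animals (Sample_1120 is cKO+/- and Sample_1219 cKO-/-), and the controls themselves run from Sample_1129 to Sample_1192. Outside the range there was no control, so what the number stands for and the genotype cannot be separated there.

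Of the 8 genes called per allele in either tissue, 6 had a promoter in RefSeq (GRCm38.p6). The sequences of 4 are shown because they carry the results below: Scn7a and Cacng5, whose hippocampal levels in the fitted cKO-/- and control libraries did not overlap, and Hcn2 and Cacnb2, whose changes differed between the tissues. Each is the 250 bases before the annotated start, written 5′ to 3′ on the strand of the gene, with CG dinucleotides, the sites of DNA methylation, in capitals. The windows lie at chr2:66784911-66785160 (Scn7a, minus strand), chr11:107915056-107915305 (Cacng5, minus strand), chr10:79716384-79716633 (Hcn2, plus strand) and chr2:14604056-14604305 (Cacnb2, plus strand).
Scn7a: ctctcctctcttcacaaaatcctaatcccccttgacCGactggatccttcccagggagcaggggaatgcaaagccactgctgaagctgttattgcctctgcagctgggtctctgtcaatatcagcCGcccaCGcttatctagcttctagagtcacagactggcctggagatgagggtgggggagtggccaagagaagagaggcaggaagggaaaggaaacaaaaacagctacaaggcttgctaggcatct
Cacng5: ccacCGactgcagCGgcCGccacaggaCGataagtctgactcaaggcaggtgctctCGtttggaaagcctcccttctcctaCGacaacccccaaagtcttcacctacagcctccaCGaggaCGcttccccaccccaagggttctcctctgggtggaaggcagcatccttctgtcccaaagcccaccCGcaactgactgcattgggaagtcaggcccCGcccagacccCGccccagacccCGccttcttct
Hcn2: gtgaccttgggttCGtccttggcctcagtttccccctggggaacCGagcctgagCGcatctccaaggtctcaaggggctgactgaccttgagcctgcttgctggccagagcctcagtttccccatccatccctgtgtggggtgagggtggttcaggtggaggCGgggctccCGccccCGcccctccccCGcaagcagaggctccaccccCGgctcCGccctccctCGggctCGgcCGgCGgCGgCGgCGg
Cacnb2: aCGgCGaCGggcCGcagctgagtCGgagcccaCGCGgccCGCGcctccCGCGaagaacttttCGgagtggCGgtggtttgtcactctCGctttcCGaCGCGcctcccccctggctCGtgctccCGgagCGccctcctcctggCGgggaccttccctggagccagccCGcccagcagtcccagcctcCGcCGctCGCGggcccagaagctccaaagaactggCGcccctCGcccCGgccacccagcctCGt

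The Scn7a window held 3 CG dinucleotides, Cacng5 12, Hcn2 16 and Cacnb2 30, against a median of 6 over all 32851 promoters of the table. The other called genes with an entry were Cacna1e with 6 and Scn4b with 23, so the 6 ranged from 3 to 30 and the 26 remaining channel genes with an entry from 0 to 37. The motif TATAAA, searched on both strands, was in none of the 6 windows of called genes and in 12.4% of all promoters. These counts describe the windows only, and methylation was not measured.

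In the hippocampus, 5 of 38 channel genes were called per allele lost, against 4.44% of all 14339 genes tested: Scn7a rose, and Scn4b, Cacna1h, Cacna1e and Cacng5 fell. A call is an adjusted p under 0.05 in edgeR's quasi-likelihood test with sex as a covariate and Benjamini-Hochberg adjustment over all genes tested. By direction, 1 of 38 was higher (2.09% of all genes) and 4 of 38 lower (2.35% of all genes). At an unadjusted p under 0.05 there were 15 channel genes, 3 higher and 12 lower. The share of all genes under that unadjusted threshold was not counted, so no lean of the channel genes is read from these numbers. The median change of the 38 was -0.02 on the log2 scale against 0.00 (0.001715 before rounding) for all genes. With all 18 libraries 4 of 38 were called, all but Cacna1e, against 1.72% of all genes.

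**Figure D1:**
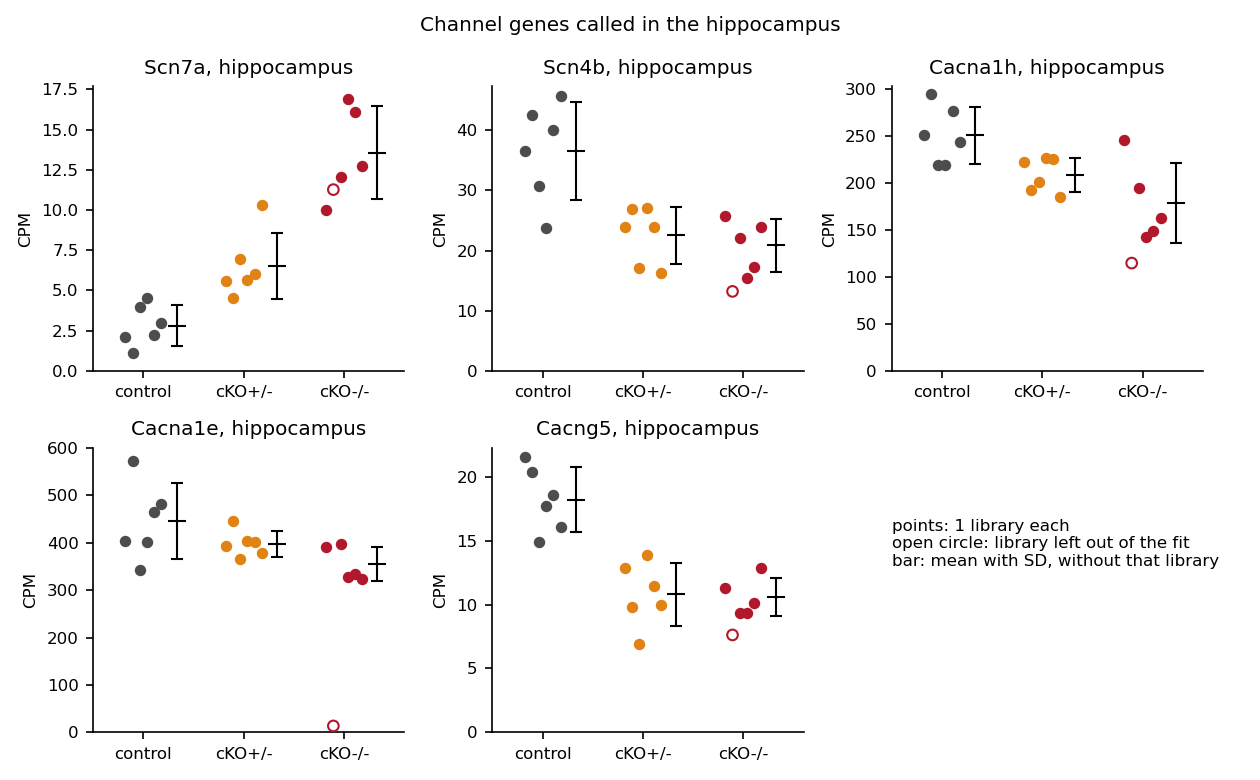
Level of the 5 channel genes called in the hippocampus, in CPM, by genotype. Each point is 1 library, the open circle is the library of animal Sample_1160, which was left out of the fit, and the bars give the mean with the SD of the other libraries; Scn7a climbs from 1.09 to 4.51 CPM in controls to 9.97 to 16.9 CPM in cKO-/-.

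Scn7a encodes Nax, an atypical sodium channel that senses extracellular sodium in glial cells and in the sensory circumventricular organs and is not opened by voltage in the usual way. The gene lies at chromosome 2, 66673426 to 66784910 (GRCm38, minus strand). Hippocampal Scn7a was 1.09, 2.09, 2.22, 2.98, 3.96 and 4.51 CPM in the 6 controls. It was 4.55, 5.56, 5.64, 6.05, 6.97 and 10.3 CPM in cKO+/-. In the 5 cKO-/- libraries fitted it was 9.97, 12.1, 12.7, 16.1 and 16.9 CPM. Every cKO+/- library was above every control, and only the highest cKO+/- library (animal Sample_1433) reached into the cKO-/- range. Scn7a rose by 1.15 ± 0.14 (SE) on the log2 scale per allele lost (adjusted p = 6.24e-05, edgeR quasi-likelihood test), the largest change in size of any channel gene tested in this tissue. With genotype as a factor it was 4.89-fold the control level in cKO-/- (adjusted p = 0.000112) and 2.34-fold in cKO+/- (unadjusted p = 0.000281, adjusted p = 0.122).

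The library of animal Sample_1160, at 11.3 CPM, also lay inside the cKO-/- range, and with all 18 libraries the change was 1.12 (adjusted p = 0.000134). Within the range Sample_1120 to Sample_1219, the cKO-/- library of animal Sample_1219 had 12.1 CPM and the 3 cKO+/- libraries 5.64 to 6.97 CPM, all above the controls. The fit to those 10 libraries alone gave 1.17 (adjusted p = 0.0461), and a covariate for the range gave 1.08 (adjusted p = 0.00491). Leaving out each animal in turn gave 1.05 to 1.22, called each time. These levels were low: the control libraries held 42 to 196 reads of Scn7a and the 5 cKO-/- libraries 280 to 419. Markers of choroid plexus, a tissue beside the hippocampus, had sums of 28.9 to 4875 CPM in controls and 19.5 to 4956 CPM in cKO-/-, and a median change of 0.49 on the log2 scale per allele with 0 of 6 called. Sums for meningeal fibroblasts were 55.9 to 313 CPM in controls and 110 to 396 CPM in cKO-/-, with a median change of 0.50 and 0 of 5 markers called. These were the largest median changes of any marker list in the hippocampus. Among astrocyte markers, Aqp4 and Hopx (2 of 6) were called higher, with a median change of the list of -0.01. Astrocyte sums were 1057 to 1442 CPM in controls and 1097 to 1456 CPM in cKO-/-. Pecam1 (1 of 3 for endothelium, median 0.26) and Rgs5 (1 of 3 for mural cells, median 0.38) were also called higher. The part of all these markers in the Scn7a result was not tested.

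Scn7a sits at the end of a cluster of sodium channel alpha genes on chromosome 2 (GRCm38), after Scn3a (65457118 to 65567492), Scn2a1 (65670445 to 65767447), Scn1a (66270782 to 66440837) and Scn9a (66480081 to 66634962). Its neighbours were not called in the hippocampus. Their changes per allele were -0.05 for Scn3a, 0.08 for Scn2a1, -0.02 for Scn1a and 0.17 ± 0.12 for Scn9a, with adjusted p of 0.568, 0.317, 0.786 and 0.472 in the edgeR fit. Scn9a, the peripheral pain channel and the gene next to Scn7a, was at 2.37 to 5.54 CPM in controls, 4.79 to 7.6 CPM in cKO+/- and 4.13 to 6.26 CPM in cKO-/-, so the genotypes overlapped.

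Among the sodium channel beta subunits, Scn4b alone was called in the hippocampus. Its product links to the alpha subunit through a disulfide bond and supplies the blocking particle of resurgent sodium current. The gene lies at chromosome 9, 45139042 to 45154061, next to Scn2b. Scn4b ranged from 23.8 to 45.7 CPM in controls with a median of 38.3. It ranged from 16.2 to 27.1 CPM in cKO+/- with a median of 23.9. The cKO-/- libraries gave 15.4, 17.3, 22.0, 23.9 and 25.8 CPM. The single control that overlapped the mutant ranges was animal Sample_1172, at 23.8 CPM. The change was -0.41 ± 0.09 per allele (adjusted p = 0.0146, edgeR quasi-likelihood test). Most of the drop was already present in cKO+/-, at 0.624-fold the control level (adjusted p = 0.172), against 0.573-fold in cKO-/- (adjusted p = 0.0137). Scn2b, the neighbouring gene, changed by 0.02 and was not called.

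Both calcium alpha1 genes called in the hippocampus fell. Cacna1h (chromosome 17, 25374287 to 25433783) encodes CaV3.2, a low-voltage-activated T-type channel that boosts subthreshold depolarization and bursting. It was 219, 219, 244, 251, 276 and 294 CPM in controls and between 185 and 226 CPM in cKO+/-. The cKO-/- libraries gave 142, 149, 163, 194 and 246 CPM. All but the animal Sample_936 library of the cKO-/- group were below the control range. The change was -0.25 ± 0.05 per allele (adjusted p = 0.0113, edgeR). Exons of Cacna1h share 156 bases with Tpsg1 on the opposite strand, but Tpsg1 held at most 20 reads in any hippocampal library.

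Cacna1e (chromosome 1, 154392519 to 154725920) encodes CaV2.3, the R-type channel of dendrites and spines. It ranged from 343 to 573 CPM in controls with a median of 435, and from 366 to 446 CPM in cKO+/-. The cKO-/- libraries gave 325, 328, 334, 390 and 398 CPM. The ranges overlapped, and the change of -0.17 ± 0.04 per allele (adjusted p = 0.0369, edgeR) was the weakest of the 5 calls. It was lost when any of 6 animals was left out (Sample_1155, Sample_1190, Sample_1192, Sample_1371, Sample_1379 or Sample_1385), with adjusted p up to 0.114. In the library of animal Sample_1160, Cacna1e stood at 13.7 CPM (534 reads), 1 of 24 channel genes below all other libraries there. With that library included, the change was -0.30 with an adjusted p of 0.439.

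The remaining alpha1 genes tested in the hippocampus were not called. At an unadjusted p under 0.05, for which no share of all genes was counted, 4 of them were lower. Cacna1c, the L-type CaV1.2 channel, changed by -0.14 (adjusted p = 0.105) and Cacna1a, the P/Q-type channel of synaptic terminals, by -0.09 (adjusted p = 0.171). Cacna1i changed by -0.14 and Cacna1d by -0.08. The alpha1 median was -0.12 over 8 genes, against 0.00 (0.001715 before rounding) over all genes tested. Cacna1g, the T-type channel most abundant in the cerebellum, had an estimate of -0.01 with a 95% interval of -0.19 to 0.17.

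Cacng5 (chromosome 11, 107874605 to 107915055) encodes TARP gamma-5, which binds AMPA receptors. It was the only gene besides Scn7a whose fitted cKO-/- and control libraries did not overlap. Controls gave 14.9, 16.0, 17.7, 18.6, 20.4 and 21.5 CPM. The cKO+/- libraries gave 6.89, 9.79, 9.95, 11.5, 12.8 and 13.8 CPM, and the cKO-/- libraries 9.32, 9.36, 10.1, 11.3 and 12.8 CPM. Every mutant library lay below every control, with cKO+/- and cKO-/- in the same range. In size, cKO+/- was at 0.594-fold the control level (unadjusted p = 5.93e-05, adjusted p = 0.0913) and cKO-/- at 0.582-fold (adjusted p = 0.00635). The per-allele change was -0.41 ± 0.09 (adjusted p = 0.0113, edgeR), and the library of animal Sample_1160, at 7.62 CPM, was lower still. Non-overlap of the fitted groups thus held for 2 of 38 channel genes in the hippocampus, against 3.65% of all genes, and both also held with animal Sample_1160 included.

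The hippocampal decreases are given here beside tissue markers and animal numbers, which in part differed between the genotypes too. The control hippocampus with cerebellar transcripts (animal Sample_1129) had the highest Cacng5, a gene of higher level in the cerebellum. Without that animal the Cacng5 change was -0.37 (adjusted p = 0.0246, edgeR). Scn4b too was higher in control cerebellum (-1.65 on the log2 scale, hippocampus minus cerebellum). Hippocampal Scn4b was called in every fit that left out 1 animal, with changes of -0.47 to -0.37. Markers of hippocampal pyramidal and granule neurons had 2 of 8 called, both lower (C1ql2 and Wfs1), a median change of -0.10, and sums of 5184 to 7584 CPM in controls and 5158 to 5647 CPM in cKO-/-, and their part in the decreases was not tested. Summed markers of thalamus, which borders the hippocampus, were 62.8 to 91.9 CPM in controls and 58.3 to 69.4 CPM in cKO-/-, and those of striatum 49.4 to 102 CPM and 30.2 to 90.3 CPM. In each list 1 marker was called lower per allele, Prkcd for thalamus (median change -0.04) and Drd2 for striatum (median change -0.18). A covariate for these markers and the genotype can therefore not be fully separated. With a covariate for both marker lists, 4 channel genes were called, Scn7a and in place of the others Cacna1c, Cacna1i and Cacnb2. The share of all genes called was not counted for this covariate or for the one of animal numbers that follows. Under the marker covariate Scn7a rose by 0.90 (adjusted p = 0.0036, edgeR). Scn4b stood at -0.21, Cacna1h at -0.19, Cacng5 at -0.19 and Cacna1e at -0.15, with adjusted p of 0.157 to 0.307. With the covariate for the animal number range, Scn7a alone stayed called, and the others stood at -0.38 (Scn4b), -0.20 (Cacna1h), -0.42 (Cacng5) and -0.15 (Cacna1e), with adjusted p of 0.271 to 0.562. Inside the range, the cKO-/- animal Sample_1219 was below all 6 controls for Scn4b (22.0 CPM), Cacna1h (194 CPM) and Cacng5 (9.36 CPM) and inside the control range for Cacna1e (398 CPM).

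In the cerebellum, 3 of 37 channel genes were called per allele lost, all higher: Hcn2, Cacnb2 and Cacng4. This was a smaller share than the 13.7% of all 14027 genes called there in either direction, and near the 7.11% called as higher. At an unadjusted p under 0.05 there were 11 channel genes, 9 higher and 2 lower. The share of all genes under that unadjusted threshold was not counted, so no lean of the channel genes is read from these numbers. The median change of the 37 was 0.04 on the log2 scale against 0.00 (0.000867 before rounding) for all genes. No channel gene had cKO-/- and control libraries that did not overlap, against 4.58% of all genes. None of the 9 calcium alpha1, 5 sodium alpha, 4 sodium beta or 4 alpha2delta genes tested was called.

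**Figure D2:**
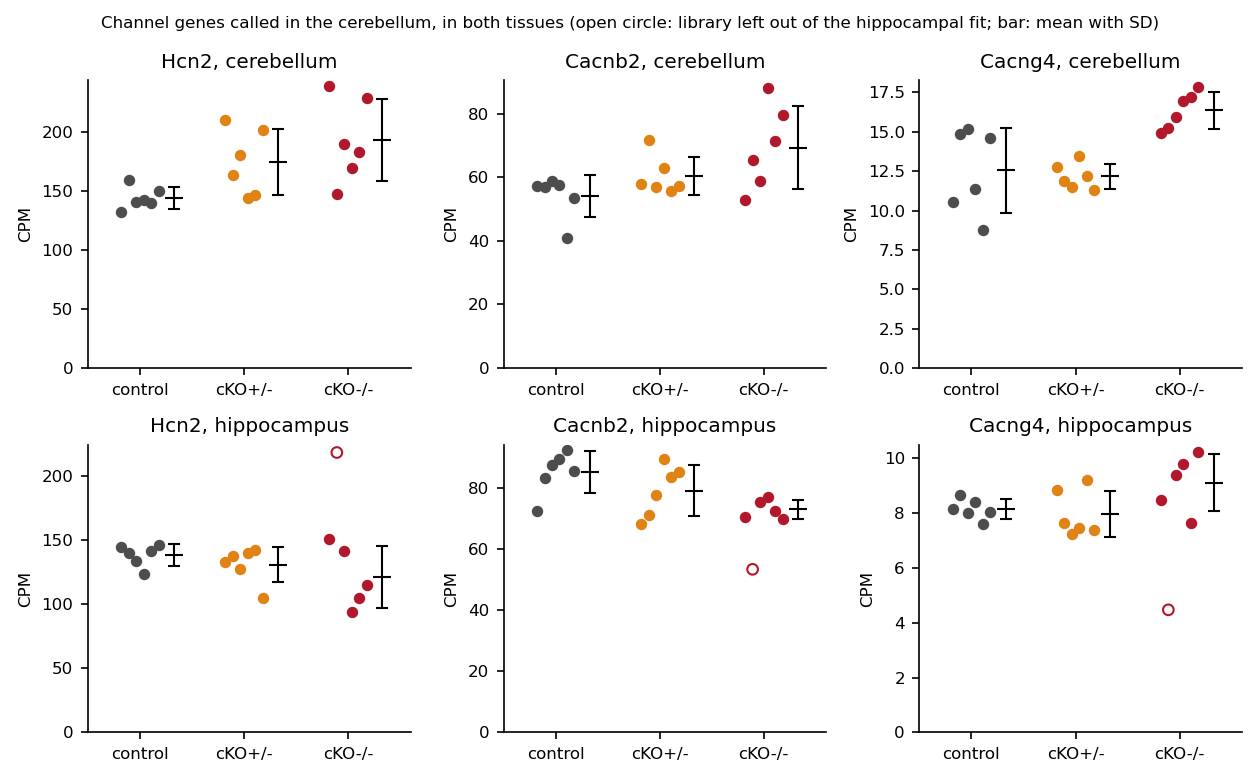
Level of the 3 channel genes called in the cerebellum, in CPM, by genotype, in the cerebellum (top) and the hippocampus (bottom). Each point is 1 library, the open circle is the hippocampal library of animal Sample_1160, and bars give the mean with the SD without it; cerebellar Hcn2 averages 144 CPM in controls and 193 CPM in cKO-/-, and hippocampal Hcn2 138 and 121 CPM.

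Hcn2 (chromosome 10, 79716634 to 79736108) encodes a slowly gating pacemaker subunit that responds strongly to cyclic AMP. Cerebellar Hcn2 was 132, 140, 141, 142, 150 and 160 CPM in controls. The cKO+/- libraries gave 144, 146, 163, 180, 201 and 210 CPM, and the cKO-/- libraries 147, 170, 183, 189, 228 and 238 CPM. Of the 6 cKO-/- libraries, 5 were above every control, and the exception was animal Sample_1160. The change was 0.21 ± 0.05 per allele (adjusted p = 0.0164, edgeR). The 4 mutant libraries with the most brainstem and midbrain markers were also the 2 highest of each mutant group for Hcn2. Without them the change was 0.13 (adjusted p = 0.078), and without animal Sample_1385 alone it was 0.18 (adjusted p = 0.0516).

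Cacnb2 (chromosome 2, 14604306 to 14987908) encodes a cytoplasmic beta subunit that carries calcium channels to the membrane. Its control levels were 41.0, 53.3, 56.9, 57.3, 57.4 and 58.7 CPM, with animal Sample_1190 far below the rest. The cKO+/- libraries ranged from 55.6 to 71.6 CPM and the cKO-/- libraries gave 52.7, 58.6, 65.5, 71.3, 79.5 and 88.2 CPM. The change was 0.18 ± 0.05 per allele (adjusted p = 0.0284, edgeR). It was lost without animal Sample_1129, Sample_1190, Sample_1371 or Sample_1385, with an adjusted p of at most 0.0741. With the covariate for brainstem and midbrain markers, Cacnb2 was the only channel gene called.

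Cacng4 (chromosome 11, 107734780 to 107794464), another TARP of AMPA receptors and a neighbour of Cacng5, ranged from 8.74 to 15.2 CPM in controls overlapping both mutant groups. It ranged from 11.3 to 13.4 CPM in cKO+/-. The cKO-/- libraries gave 14.9 to 17.8 CPM. The cKO-/- libraries were above every cKO+/- library, while cKO+/- and control overlapped. The change was 0.19 ± 0.06 per allele, at the threshold (adjusted p = 0.0499, edgeR). As a factor, cKO-/- was 1.30-fold the control level (adjusted p = 0.0399), while cKO+/- had a fold of 0.97. In the hippocampus the change was 0.07 and was not called. The call was lost in 14 of the 18 fits that left out 1 animal, with RLE factors and with no filter on low counts (adjusted p = 0.0523 and 0.0696, edgeR).

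Just outside the threshold in the cerebellum were Cacna2d3 (0.16, adjusted p = 0.0538, edgeR) and Scn3b (0.62 ± 0.21, adjusted p = 0.0559). Scn3b and Scn3a had the largest fitted changes of the tissue at low levels. Cerebellar Scn3b was 2.45 to 3.1 CPM in controls and 3.04, 4.13, 4.7, 5.54, 7.7 and 12.9 CPM in cKO-/-, and it reached 16.4 CPM in the cKO+/- animal Sample_1433. Scn3a was 1.45 to 2.46 CPM in controls, with 11.3 CPM in animal Sample_1433 and 9.85 CPM in animal Sample_1385. The highest levels of both genes were thus in the 2 libraries with the highest brainstem and midbrain sums. Hcn4 likewise was 0.832 to 2.99 CPM in controls and 6.69 to 7.31 CPM in the 4 libraries with the highest sums. Without those 4 libraries, Scn3b was the only channel gene called in the cerebellum, chosen for mention here after its values were seen. The part of brainstem RNA in the cerebellar values was otherwise not tested. Markers of meningeal fibroblasts also rose (4 of 5 called higher), with sums of 180.3 to 253 CPM in controls and 262 to 495 CPM in cKO-/-. Astrocyte and Bergmann glia markers had 3 of 6 called higher (median change 0.09). Microglia had 2 of 5 (0.22) and Purkinje cells 1 of 6 (0.08). No marker of these lists was called lower. Choroid plexus sums were 18.7 to 27.1 CPM in controls and 2351, 3159 and 3024 CPM in Sample_933, Sample_1433 and Sample_936, which are among the 4 libraries high in brainstem markers. Granule cell sums were 4355 to 5211 CPM in controls and went down to 2949 CPM in cKO+/-. They were 2602, 3075 and 3335 CPM in the cKO-/- libraries of Sample_1385, Sample_1371 and Sample_1379. In the same 3 libraries the sums of cerebellar interneuron markers, of which Slc32a1 and Kit (2 of 6) were called higher, were 1775, 1831 and 1660 CPM, against 1043 to 1467 CPM in controls. Leaving out Sample_1385 or Sample_1371 lost the Cacnb2 call, as did leaving out the control Sample_1129 or Sample_1190. Leaving out Sample_1385 lost the Hcn2 call, and leaving out Sample_1379 lost neither call. The part of these cell types in the cerebellar results was not tested.

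Inside the range of animal numbers that holds every control, the cerebellar fit called 0 of 37 channel genes. Estimates were 0.12 for Hcn2, 0.10 for Cacnb2 and 0.13 for Cacng4, with adjusted p of 0.295 to 0.467 in edgeR. That fit had only 2 cKO-/- libraries, and the share of all genes it called was not counted. The lost calls can therefore not be told from a general loss of power. The 2 cKO-/- libraries inside the range had 147 and 189 CPM of Hcn2, 58.6 and 65.5 CPM of Cacnb2 and 15.3 and 15.9 CPM of Cacng4. Scn7a did not pass the filter in the cerebellum. There it was 0.106 to 0.619 CPM in controls and 0.884 to 2.09 CPM in the 4 cKO-/- libraries outside the range, but 0.0893 and 0.0999 CPM in the 2 inside it, which are at or under 3 reads each. The cKO+/- libraries had 0.507 to 2.82 CPM outside the range and 0.0311 to 0.679 CPM inside it. Being under the filter, Scn7a gave no cerebellar test to set beside its hippocampal change.

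**Figure D3:**
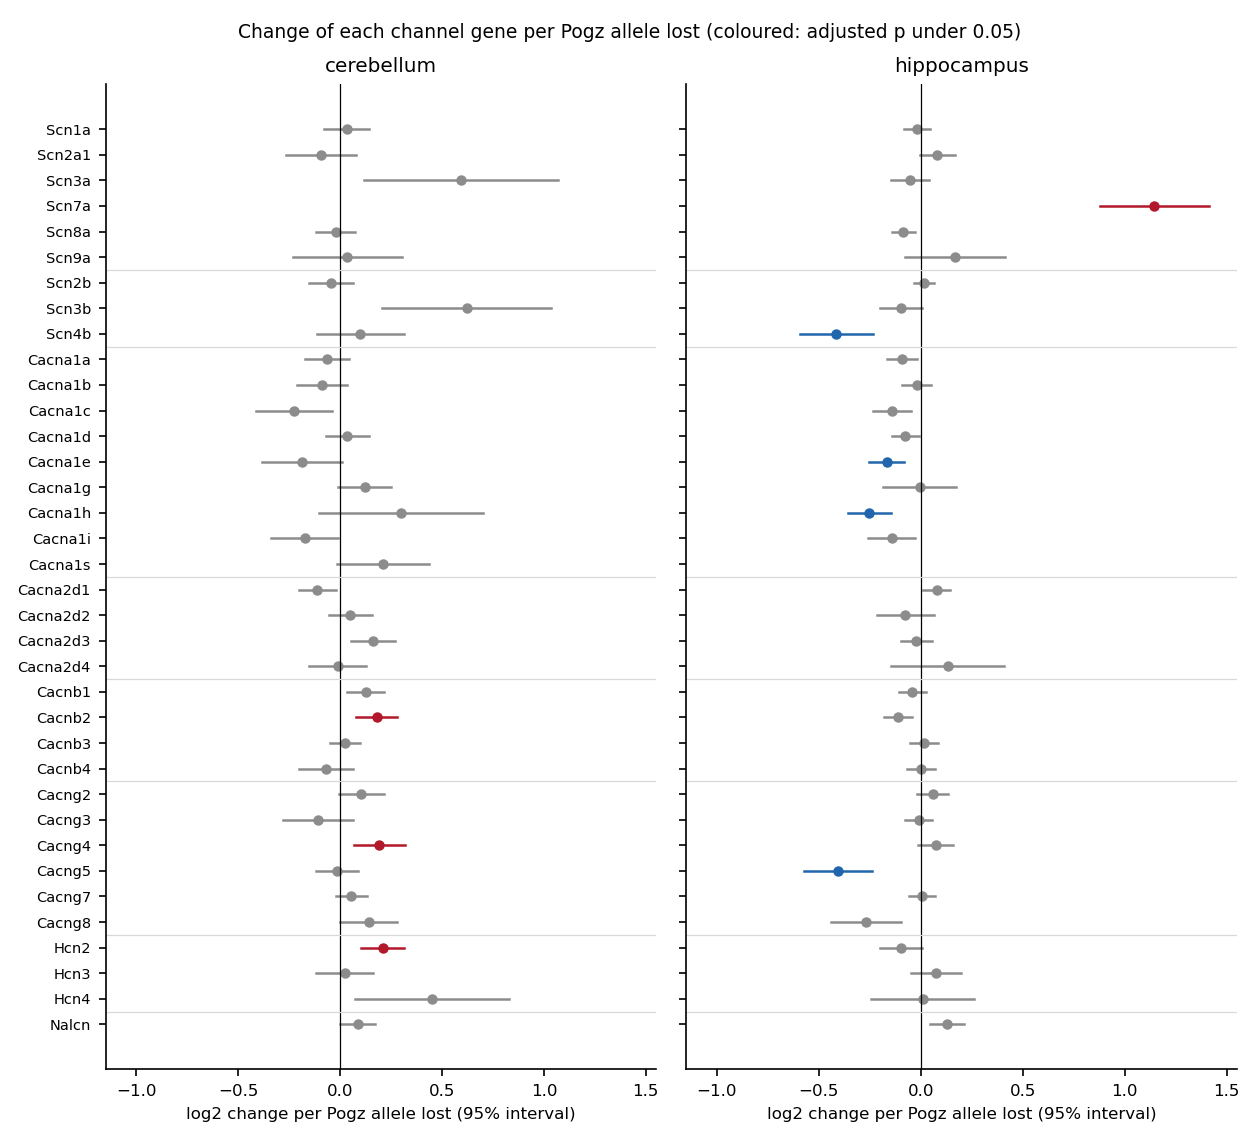
Change of 36 channel genes per Pogz allele lost, on the log2 scale (x axis), in the cerebellum (left) and the hippocampus (right), ordered by subunit class. Points are edgeR estimates with 95% intervals, red and blue mark genes called as higher and lower, and grey marks the rest; Scn7a at 1.15 is the rightmost point of the hippocampus.

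Whether the change per allele differed between the tissues was tested in a model over 35 libraries, for the 36 channel genes that passed in both. The difference was called for 3 of 36, against 1.49% of all 13587 genes, all 3 lower in the hippocampus than in the cerebellum (1.24% of all genes in that direction): Cacnb2, Hcn2 and Cacng5. For Cacnb2 the change was 0.18 in the cerebellum and -0.11 in the hippocampus, a difference of -0.30 ± 0.07 (adjusted p = 0.0144, edgeR). Hippocampal Cacnb2 was 72.5 to 92.3 CPM in controls and 69.9 to 76.9 CPM in the 5 cKO-/- libraries, overlapping only at the control of animal Sample_1129. For Hcn2 the change was 0.21 against -0.10, a difference of -0.32 ± 0.08 (adjusted p = 0.025). Hippocampal Hcn2 was 123 to 146 CPM in controls and 93.5, 105, 115, 141 and 150 CPM in cKO-/-, and the library of animal Sample_1160, not fitted, had 218 CPM. The Hcn2 difference was lost with that library included (-0.22, adjusted p = 0.262). Leaving out 1 animal at a time lost it in 5 of 18 fits, and the Cacnb2 difference in 2 of 18.

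Cacng5 differed in another way, with no change in the cerebellum that could be told from 0 (-0.01, 95% interval -0.12 to 0.09) and a decrease in the hippocampus. Cerebellar Cacng5 was 68.4 to 89.2 CPM in controls, 57.2 to 90.1 CPM in cKO+/- and 61.8 to 90.2 CPM in cKO-/-, nearly the same range in each. The difference between tissues was -0.40 ± 0.10 (adjusted p = 0.0393). It was lost in 9 of the 18 fits that left out 1 animal, with adjusted p up to 0.129 in edgeR. The smallest estimate in size, -0.33, came without animal Sample_1129. With the animal as a block, since each mouse gave both tissues, 4 of 36 were called, against 2.49% of all genes, by the addition of Scn4b. The test with a covariate for the animal number range called 0 of 36, and without the control animal Sample_1190 the number was also 0. Without animal Sample_1129, Sample_1379 or Sample_1385 it was 1. The share of all genes called was not counted for the range covariate or for the fits without an animal.

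Most channel genes differed between the tissues of control mice. Between control hippocampus and control cerebellum, 34 of 39 were called by edgeR, 18 higher in the hippocampus (35.2% of all genes) and 16 higher in the cerebellum (36.7% of all genes). Large differences toward the hippocampus were those of Scn3b (7.25 on the log2 scale), Cacna1h (6.54), Scn3a (5.32) and Cacng8 (4.36). Toward the cerebellum the largest were those of Cacna2d2 (-2.92), Cacna1g (-2.25), Cacng5 (-2.06), Cacnb4 (-1.80) and Cacng2 (-1.72), several of them genes of ataxia or absence epilepsy in mice (ducky, lethargic and stargazer for Cacna2d2, Cacnb4 and Cacng2). The 5 genes not called were Cacna1d, Hcn4, Nalcn, Hcn2 and Cacna1i.

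**Figure D4:**
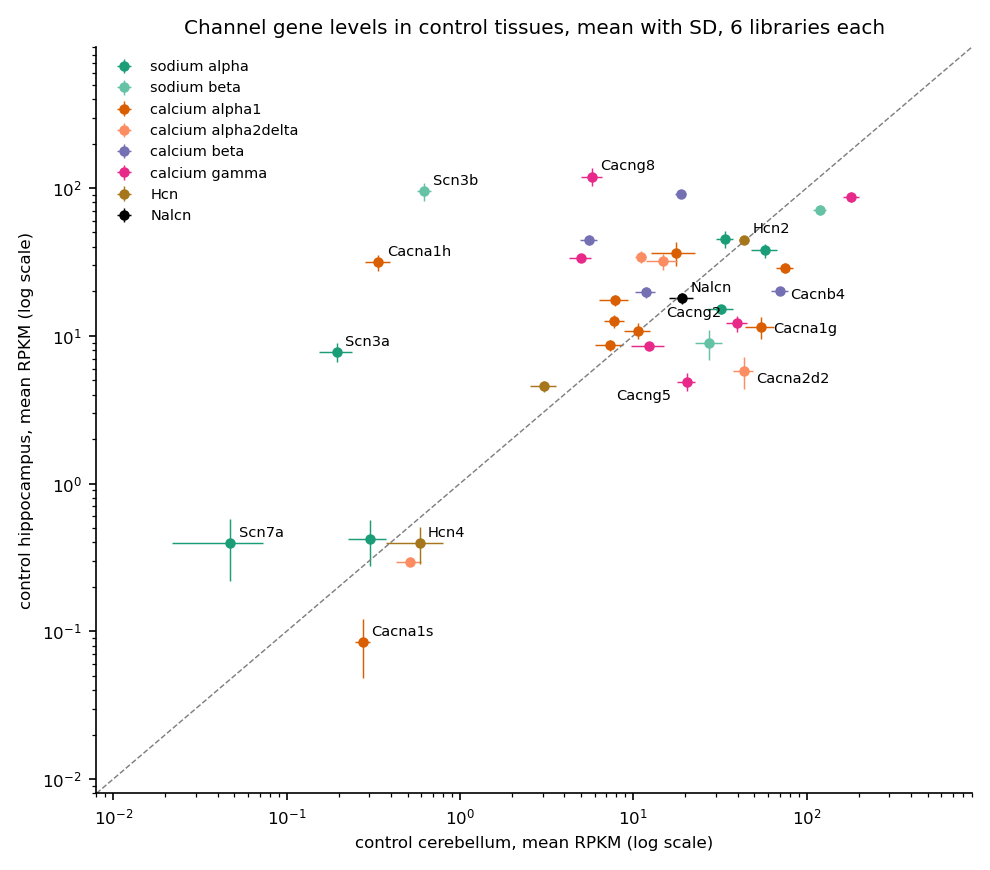
Mean level of 36 channel genes in control cerebellum (x axis) and control hippocampus (y axis), in RPKM (CPM per kilobase of exon), both axes on a log scale. Bars give the SD over 6 libraries of each tissue, colours the subunit class, and the dashed line equal levels; Scn3b lies far above the line (0.622 and 95.2 RPKM) and Cacna2d2 below it (43.4 and 5.81 RPKM).

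Levels were compared between genes per kilobase of exon. Among sodium alpha genes, Scn2a1 led in control cerebellum (57.6 ± 10.1 RPKM, SD, n = 6) and Scn8a in the hippocampus (45.4 ± 6.12), where Scn2a1 followed at 37.8 ± 4.16. Among pore-forming calcium subunits, Cacna1a, the P/Q-type channel of Purkinje cells, led in the cerebellum (75.2 ± 8.81 RPKM) with the T-type gene Cacna1g next (54.3 ± 10.3). In the hippocampus Cacna1e (36.2 ± 6.7 RPKM), Cacna1h (31.4 ± 3.93) and Cacna1a (28.9 ± 2.41) lay within about an SD of each other. The 2 alpha1 genes called as lower in the hippocampus were thus the 2 highest by mean there. Cacna1a, Cacna1c, Cacna1d and Cacna1i also had negative estimates there without being called, and the part of level in being called was not tested. Cacna1h was at 0.338 ± 0.056 RPKM in control cerebellum.

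Accessory subunits changed places between the tissues. The beta subunit Cacnb4 led in the cerebellum (70.4 ± 7.99 RPKM) and Cacnb3 in the hippocampus (91.4 ± 4.45). Of the alpha2delta genes, of which Cacna2d1 and Cacna2d2 encode the proteins that gabapentin binds, Cacna2d2 led in the cerebellum (43.4 ± 5.76 RPKM), and in the hippocampus Cacna2d1 (34.3 ± 3.22) and Cacna2d3 (32.0 ± 4.05) were within an SD of each other. Cacng7 led the gamma genes in the cerebellum (181 ± 19.9 RPKM) and Cacng8, the main TARP of hippocampal synapses, in the hippocampus (119 ± 16.6). Hcn2 led the pacemaker genes in both, at 43.7 ± 3.01 and 44.7 ± 2.8 RPKM, and Nalcn was 19.1 ± 2.96 RPKM in the cerebellum and nearly as high in the hippocampus. The called sodium channel Scn7a was low by this measure, at 0.047 ± 0.026 RPKM in control cerebellum and 0.395 ± 0.178 in control hippocampus.

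Cacng8 and Nalcn had changes near the threshold in the hippocampus. Cacng8 was 130 to 184 CPM in controls and 73.4, 88.2, 90.8, 148 and 156 CPM in cKO-/-, with a change of -0.27 ± 0.09 that did not pass (adjusted p = 0.0909, edgeR). Nalcn was 110 to 137 CPM in controls and 130 to 167 CPM in cKO-/-, with a change of 0.13 ± 0.04 (adjusted p = 0.0926).

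The channel genes that did not pass in either tissue were the muscle channels Scn4a and Cacng1, Cacng6, the pain channels Scn10a and Scn11a, and the retinal Cacna1f. The largest value of any of them was 1.4 CPM, for Cacng6 in the hippocampus, where it held 10 to 54 reads per library. Scn4a, Cacng1 and Scn10a had at most 8 reads in any library. Cacna1s, the muscle L-type channel, passed in the cerebellum alone, at 0.275 ± 0.028 RPKM in controls.

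Genes for proteins that bind, anchor or regulate these channels were counted beside them, 36 in all. In the cerebellum 2 of 33 tested were called, against 13.7% of all genes, both lower: Stac3 (-0.47, adjusted p = 0.0154, edgeR), an adaptor of L-type channels, and Sptbn4 (-0.18, adjusted p = 0.0347), the spectrin of the axon initial segment. In the hippocampus 4 of 34 were called, against 4.44% of all genes, and all 4 were lower, against 2.35% of all genes. Ryr1, a calcium release channel of the endoplasmic reticulum, was 58.4 ± 10.8 CPM (SD, n = 6) in controls, 44.4 ± 4.82 CPM (n = 6) in cKO+/- and 30.6 ± 4.81 CPM (n = 5) in cKO-/-, a change of -0.46 per allele (adjusted p = 0.000221, edgeR). The other 3 were the L-type adaptor Stac2 (-0.18), the ubiquitin ligase Nedd4l (-0.17) and the second release channel Ryr2 (-0.16), with adjusted p of 0.00849, 0.0264 and 0.0419. The ankyrin gene Ank3, which holds sodium channels at the axon initial segment, was not called (-0.09, adjusted p = 0.0608).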

How the data were processed

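Gene counts of poly(A) RNA from 36 libraries were used as the authors deposited them: whole-number counts per gene without normalization, made with STAR (250a in the submitters' processing notes). The notes name mm9, while exon coordinates in the tables are of GRCm38: the start of 26 of 32 channel genes matched RefSeq GRCm38.p6 to the base. Annotation release, use of strand and handling of multi-mapped reads are not given in the sources used here. The deposited exon lengths served to compute RPKM.

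CPM values with TMM factors were computed with edgeR 4.0.16 (R 4.3.3). Genes above 1 CPM in at least 6 of 18 libraries of a tissue entered edgeR's quasi-likelihood F-test (legacy form) with terms for sex and alleles lost (0, 1, 2) and Benjamini-Hochberg adjustment at 0.05. SE is the log2 change over the root of F, and a 95% interval is normal. The hippocampal fit used 17 libraries. The tissue difference was an interaction term over 35 libraries, and control tissues were compared over 12. Alternatives included DESeq2 1.42.0, RLE factors, no filter, genotype as a factor and each animal left out. Only the cerebellar per-allele fit was tested on simulated counts, with known changes larger than those of the channel genes called there. In the fits of a single tissue, p-values measure the spread between mice. The fits over both tissues had no animal term except where the animal was a block. There, without the block, the libraries of a mouse counted as independent. Read floors (3 reads) cover counting error only.

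Reads of overlapping genes cannot be assigned without strand: Cacna1d, Cacna1h and Scn9a share 526, 156 and 319 exon bases with a gene on the opposite strand, and Cacng8 shares 91 with a small RNA gene on its own. Sodium channel alpha genes are close paralogs, so their counts depend on how shared reads were handled. Each animal's libraries are paired by the animal number in the labels, and their deviations from the group means correlated with a median r of 0.204 (17 animals). The channel genes, the lists and the rule for named genes (all called genes, the gene of highest control RPKM of each class per tissue, the 5 largest differences between control tissues each way, and genes under the filter, without a test) were chosen with earlier results of these data known. Genes near the threshold, neighbours of Scn7a and other channel genes named beside these were picked after their values were seen. A few channel genes enter the counts but are not reported here by name or in the figures. Animals outside Sample_1120 to Sample_1219 were marked for the range covariate. Fits inside that range and without the 4 cerebellar libraries with the highest brainstem sums were added after seeing the data.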

Additional observations from a re-analysis of the deposited data

Results flagged for a closer look

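Among 78 groups of libraries examined for a distant sample, 4 were picked out, and chance alone picks out about 1 in 20. Control animal Sample_1190 was far below the other controls in the cerebellum for Cacna2d2 (184.784 CPM, others 250 to 270 CPM) and for Cacnb2 (40.9635 CPM, others 53.3 to 58.7 CPM). The cKO+/- animal Sample_1433 was the distant library of the other groups. Its cerebellum was low in Cacng2 (95.6295 CPM, others 121 to 136 CPM), and its hippocampus was high in Nalcn (172 CPM, others 120 to 140 CPM).

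The change per allele differed between hippocampus and cerebellum for 3 channel genes in the interaction test of edgeR. The differences, hippocampus minus cerebellum, were -0.32 for Hcn2, -0.40 for Cacng5 and -0.30 for Cacnb2 on the log2 scale, all given with their levels above.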

How the results depend on the processing

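Counts of channel genes called, 3 in the cerebellum, 5 in the hippocampus and 3 for the tissue difference, moved by over 1.5 times under the settings below. DESeq2 called 7, 10 and 6 in these comparisons. The count of 34 between control tissues stayed within 1.5 times in every setting run (33 to 38). For cKO+/- against control the counts were 0 and 0 in cerebellum and hippocampus, with Cacng4 reversed at -0.0445 in the cerebellum. A term for animals inside or outside Sample_1120 to Sample_1219 gave 0, 1 and 0, and the animals inside it alone gave 0, 1 and 0. The brainstem and midbrain covariate gave 1 in the cerebellum, and so did leaving out the 4 libraries highest in those markers. The last 2 kinds of subset, inside the range and without those libraries, were chosen after seeing the data. Leaving out each animal gave 0 (without animal Sample_1385; 1 without Sample_1129, Sample_1190 or Sample_1371; 5 without Sample_1170) to 6 (without Sample_1160, Sample_1219 or Sample_1433) in the cerebellum, 4 to 8 (without Sample_936) in the hippocampus, 0 (without Sample_1190; 1 without Sample_1129, Sample_1379 or Sample_1385) to 8 (without Sample_1433; 7 without Sample_1160 and 5 without Sample_1219) for the tissue difference and 33 to 35 between control tissues, which is no change of that size. Hippocampal Scn7a, Cacng5, Cacna1h and Scn4b were called in each of these 17 fits, and cerebellar Hcn2 in 17 of 18. With the animal as a block, the tissue difference had 4 calls and the control tissues 35. All other settings stayed within 1.5 times. Shares of all genes called are given above for the main fits, the 18 hippocampal libraries and the tissue-difference block only. Low counts limit the precision for Scn7a in the cerebellum, at 1 to 92 reads per library, and what depth would add was not tested.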
